A study of Mus musculus with 12 samples.

Results

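The glucose and lactate transport genes of the mouse retina were followed as 10 genes chosen by symbol: the glucose transporters Slc2a1 and Slc2a3, the monocarboxylate transporters Slc16a1, Slc16a7, Slc16a3 and Slc16a8, the transporter partner Bsg, the rod-secreted factor gene Nxnl1, and the lactate dehydrogenases Ldha and Ldhb. All 10 were found among the 56748 genes of the deposited table. The table holds 12 polyA RNA libraries from retinas of 2-week-old littermates. In 6 libraries the RNA came from rod photoreceptors by translating ribosome affinity purification (TRAP), in which a Cre-activated HA tag on the ribosomal protein Rpl22 (the RiboTag allele) lets tagged ribosomes and their mRNA be pulled down. The other 6 were made from the total retina lysate before the pull-down. Control mice carried RiboTag, 1 floxed allele of Shp2 (Shp2fl/+) and i75-Rod-Cre, and are called Het here, although the titles of these samples say wt. Knockout (KO) mice carried RiboTag, Shp2fl/fl and i75-Rod-Cre. Each of the 4 groups, Het rods, KO rods, Het retina and KO retina, had 3 libraries. Cre, driven by a rod promoter, and RiboTag were present in every group, so no group lacks either, and the Het controls had lost 1 Shp2 allele wherever Cre acted. No source used here says that the 3 libraries of a group came from separate animals, and the p-values measure the spread between these libraries.

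Photoreceptors burn glucose mainly by aerobic glycolysis and release lactate. Glucose reaches the outer retina through the facilitative transporter GLUT1 (Slc2a1) of the retinal pigment epithelium (RPE), of photoreceptors and of Müller glia. GLUT3 (Slc2a3) is the high-affinity transporter of inner retinal neurons. Pyruvate is turned to lactate by lactate dehydrogenase, whose A subunit (Ldha) is usually tied to lactate production and whose B subunit (Ldhb) to lactate use. Lactate crosses membranes with a proton through the monocarboxylate transporters MCT1 (Slc16a1), MCT2 (Slc16a7), MCT3 (Slc16a8) and MCT4 (Slc16a3). Basigin (Bsg) brings MCT1, MCT3 and MCT4 to the cell surface, and its photoreceptor form binds the rod-derived cone viability factor made from Nxnl1.

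The deposited values are whole numbers already scaled so that every library of a fraction has nearly the same total, 16263948 to 16265259 for rod and 14525527 to 14527992 for retina libraries. A value is therefore a scaled read number, and a value in rods and a value in retina are not on 1 scale until the libraries are rescaled together, as was done for every fold change. Estimated depth, in units of 1000000 reads, was 11.9 to 25.3 in rods and 9.98 to 19.2 in the 5 retina libraries where it could be estimated. The rod label held: 14 of 14 rod markers rose in Het rods against Het retina, by a median log2 fold change of 1.796. By the limits given below, all 14 were called higher, against 21.6% of all genes tested. The summed value of 10 Müller glia markers was 1879 to 3253 in Het rods against 52653 to 68015 in Het retina, and that of 10 RPE markers 129 to 311 against 2147 to 6904. Müller glia and RPE markers were thus low in the rod libraries, but none of them was at 0 in all 3 Het rod libraries. Sums fell less for 10 cone markers, 5600 to 8672 in Het rods against 15750 to 19317 in Het retina. For 10 bipolar cell markers they were 4041 to 5446 against 16604 to 17730.

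**Figure D1:**
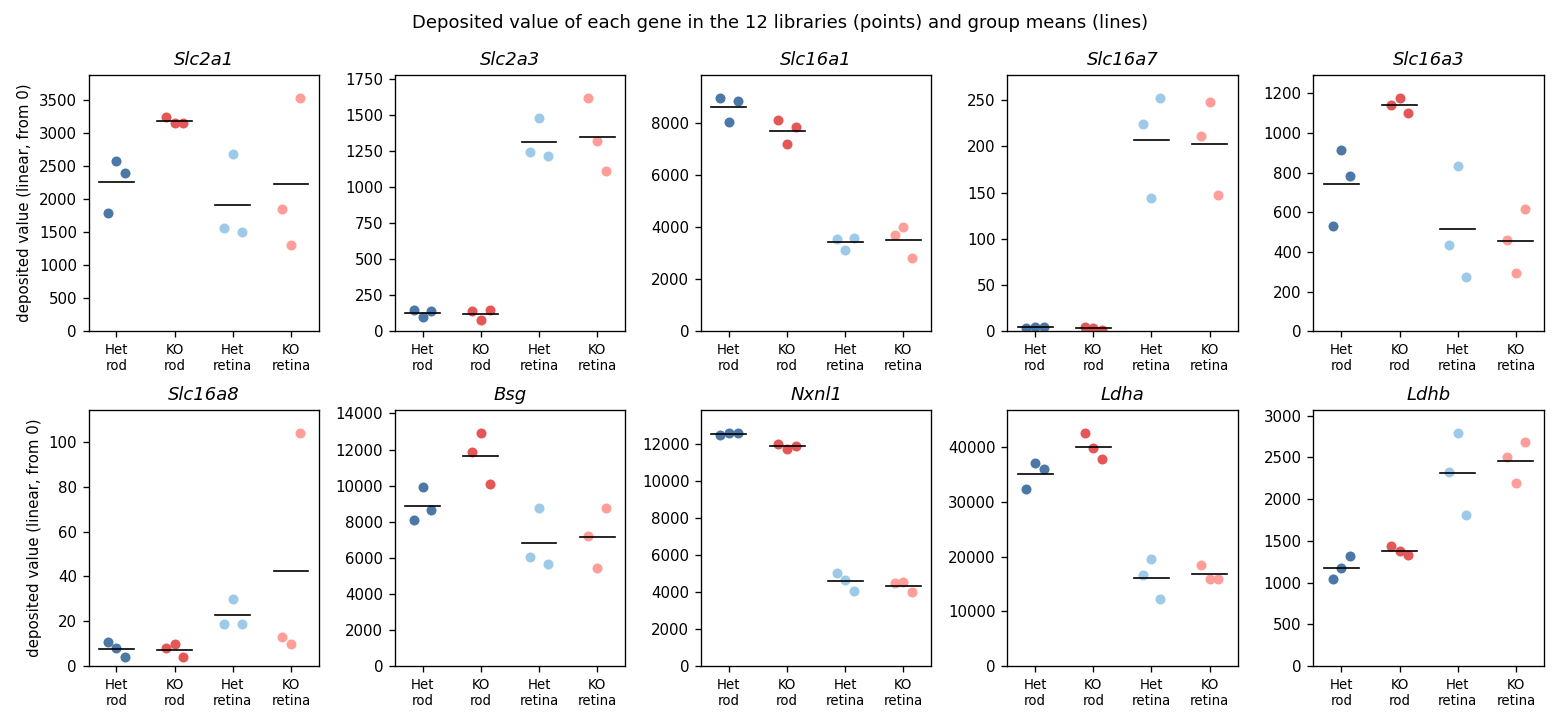
Deposited value (linear axis from 0) of each of the 10 genes in the 12 libraries; points are libraries, lines group means of 3, and rod and retina values are on different scales. Slc2a3 and Slc16a7 are far lower in the 6 rod libraries, Slc16a1, Nxnl1 and Ldha higher, and single retina libraries reach 3527 for Slc2a1 and 104 for Slc16a8.

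Compared per kilobase of the longest coding transcript, which sets the genes on 1 scale within a fraction, the level in Het rods was highest for Ldha (19354 ± 1406 per kb, SD, n = 3), followed by Bsg (5827 ± 617), Nxnl1 (4599 ± 24.4), Slc16a1 (1948 ± 111), Ldhb (904 ± 107), Slc2a1 (692 ± 126), Slc16a3 (171 ± 44.9), Slc2a3 (32.4 ± 6.26), Slc16a8 (4.25 ± 1.94) and Slc16a7 (0.425 ± 0.0526). No neighbours in this order overlapped in Het rods. The order was the same in KO rods, again without overlap, except that Slc2a1 and Ldhb changed places when all exons of a gene were used as its length. In Het retina Ldha (8917 ± 1996 per kb) and Bsg (4488 ± 1108) again led, but Ldhb (1772 ± 376) overlapped Nxnl1 (1677 ± 180), Slc16a1 (773 ± 57.0) overlapped Slc2a1 (588 ± 205), and Slc16a7 (18.8 ± 5.10) overlapped Slc16a8 (12.6 ± 3.52). Slc16a1 made up 91.7% ± 2.31 of the summed per-kilobase level of the 4 monocarboxylate transporters in Het rods and 83.8% ± 6.86 in Het retina. In KO mice its share was 86.7% ± 1.07 in rods and 84.0% ± 8.02 in retina, and these fractions overlapped.

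Whether the mRNA of these genes is enriched on rod ribosomes was asked by setting rod RNA against whole-retina RNA of the same genotype. A gene is called here when its adjusted p is below 0.05 and its log2 fold change beyond 0.5 in either direction, by limma over all genes tested. In Het mice 4 of the 10 genes were called higher in rods (Slc16a1, Bsg, Nxnl1 and Ldha) and 4 lower (Slc2a3, Slc16a7, Slc16a8 and Ldhb), against 21.6% of all 16110 genes called higher and 36.8% called lower. In KO mice 6 were called higher (Slc2a1 and Slc16a3 in addition) and 2 lower (Slc2a3 and Slc16a7), against 25.8% higher and 36.4% lower of 16121 genes. Slc16a7 and Slc16a8 passed the filter on low values only through the retina libraries, where they were higher, so their direction was fixed by passing and is given as a description. The groups compared in KO mice share no library with those in Het mice. In bulk RNA, fewer cells of a type and less RNA per cell cannot be told apart.

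**Figure D2:**
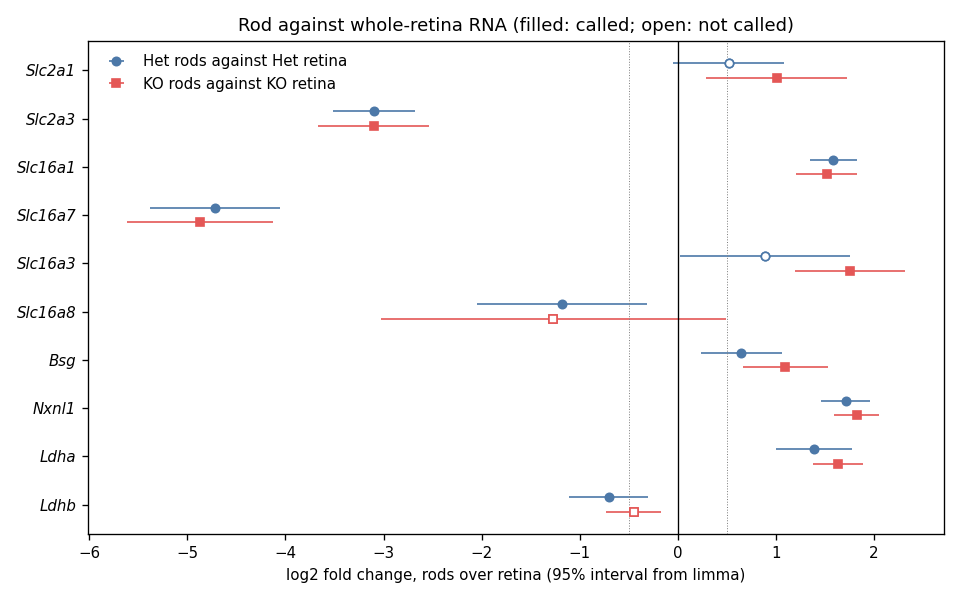
log2 fold change of the 10 genes in rods over retina for Het and KO mice with 95% intervals from limma; filled markers are called, open markers are not, and dotted lines mark a log2 fold change of 0.5 in either direction. Slc2a3 and Slc16a7 lie at -3.10 or below in both genotypes, and Slc16a1, Nxnl1 and Ldha above 1.39.

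The glucose transporters parted. Slc2a3 (ENSMUSG00000003153, chromosome 6) stood at 146, 100 and 139 in the Het rod libraries and at 139, 79 and 150 in the KO rod libraries. Slc2a3 values in retina were 1240, 1478 and 1218 for Het and 1616, 1316 and 1109 for KO libraries. Within each genotype the rod and retina libraries did not overlap, and the gene was 8.56-fold lower in Het rods (log2 fold change -3.10, SE 0.18, adjusted p = 2.1e-06) and 8.58-fold lower in KO rods (-3.10, SE 0.25, adjusted p = 9.8e-06). Slc2a1 (ENSMUSG00000028645, chromosome 4) stood at 1795, 2576 and 2397 in the Het rod libraries and at 3246, 3151 and 3157 in the KO rod libraries. Slc2a1 values in retina were 1556, 2689 and 1508 for Het and 1853, 1311 and 3527 for KO libraries. Its highest Het retina library reached above all 3 Het rod libraries before rescaling, and the call was missed in Het mice (0.52, SE 0.25, adjusted p = 0.097) but made in KO mice (1.01, SE 0.32, adjusted p = 0.019). Rod and retina libraries of the same number deviated together in Het mice, and when the number was entered as a block, the Het difference of Slc2a1 was called (adjusted p = 0.016). Leaving out Het retina replicate 2 raised it to 0.81 (adjusted p = 0.00060). The KO call was lost when any 1 of the KO rod libraries or KO retina replicate 1 was left out (adjusted p 0.0516 to 0.0602) and when only totals were used for scaling (0.47, adjusted p = 0.20). Without KO retina replicate 3, the library with 3527, the KO difference was 1.40 (adjusted p = 2.9e-05). Within a library, the ratio of Slc2a1 to Slc2a3 per kilobase was 22.4 ± 8.27 in Het rods, 34.1 ± 12.5 in KO rods, 1.75 ± 0.402 in Het retina and 2.15 ± 1.48 in KO retina (SD, n = 3 each).

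Of the monocarboxylate transporters, Slc16a1 (ENSMUSG00000032902, chromosome 3) stood at 8964, 8057 and 8843 in the Het rod libraries and at 8124, 7196 and 7840 in the KO rod libraries. Slc16a1 values in retina were 3556, 3128 and 3574 for Het and 3720, 4029 and 2828 for KO libraries. Within each genotype all rod libraries stood above all retina libraries, and the gene was 3.002-fold higher in Het rods (log2 fold change 1.59, SE 0.11, adjusted p = 4.0e-06) and 2.86-fold higher in KO rods (1.52, SE 0.14, adjusted p = 2.0e-05). Slc16a7 (ENSMUSG00000020102, chromosome 10) stood at 4, 5 and 5 in the Het rod libraries and at 5, 4 and 2 in the KO rod libraries. Slc16a7 values in retina were 224, 144 and 252 for Het and 211, 248 and 147 for KO libraries. It held a handful of scaled reads in every rod library, and its log2 fold changes were -4.72 (SE 0.29) in Het and -4.87 (SE 0.33) in KO mice on the log2(value + 2) scale, which understates the change of a gene this low. They are given without a test, since the gene passed the filter through retina alone.

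Slc16a3 (ENSMUSG00000025161, chromosome 11) stood at 530, 913 and 781 in the Het rod libraries and at 1143, 1176 and 1102 in the KO rod libraries. Slc16a3 values in retina were 437, 833 and 274 for Het and 460, 293 and 615 for KO libraries. The Het fractions overlapped and the KO fractions did not: the log2 fold change was 0.89 (SE 0.38, adjusted p = 0.070) in Het mice and 1.75 (SE 0.25, adjusted p = 0.00025) in KO mice. With the replicate block the Het value was called (adjusted p = 0.014), and without Het retina replicate 2 it was 1.33 (adjusted p = 0.0015). Slc16a8 (ENSMUSG00000032988, chromosome 15), best known from the RPE, stood at 11, 8 and 4 in the Het rod libraries and at 8, 10 and 4 in the KO rod libraries. Slc16a8 values in retina were 19, 30 and 19 for Het and 13, 10 and 104 for KO libraries. Its Het difference (-1.18, SE 0.38, adjusted p = 0.024) rested on few reads, had its direction fixed by the filter, and lost the call without Het rod replicate 3 (adjusted p = 0.075) or Het retina replicate 2 (0.069) and with a GC correction of each library (log2 fold change -0.09, adjusted p = 0.85). The KO difference was not called (-1.27, SE 0.77, adjusted p = 0.18). KO retina replicate 3, the library with 104, also had the highest summed RPE markers, 14246 against 816 and 1622 in the other KO retina libraries. In Het retina the RPE markers summed to 2851, 2147 and 6904, and the library with the highest sum had a Slc16a8 value of 19. The part of RPE RNA in the Slc16a8 values was not tested.

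The transporter partner and the cone factor were both higher in rods. Bsg (ENSMUSG00000023175, chromosome 10) stood at 8092, 9930 and 8656 in the Het rod libraries and at 11879, 12921 and 10118 in the KO rod libraries. Bsg values in retina were 6072, 8788 and 5685 for Het and 7202, 5445 and 8775 for KO libraries. After rescaling the groups did not overlap in either genotype, and the log2 fold change was 0.65 (SE 0.18, adjusted p = 0.013) in Het and 1.098 (SE 0.19, adjusted p = 0.00087) in KO mice. The Het call was lost when only total values were used for scaling (0.24, adjusted p = 0.28) and without Het rod replicate 2 (0.56, adjusted p = 0.058). Nxnl1 (ENSMUSG00000034829, chromosome 8) stood at 12478, 12585 and 12600 in the Het rod libraries and at 11992, 11757 and 11916 in the KO rod libraries. Nxnl1 values in retina were 5032, 4647 and 4058 for Het and 4513, 4535 and 4001 for KO libraries. It was the gene with the least spread among rod libraries relative to its mean, and was 3.28-fold higher in Het rods (1.71, SE 0.11, adjusted p = 2.9e-06) and 3.55-fold higher in KO rods (1.83, SE 0.10, adjusted p = 1.6e-06). These fold changes lie next to the median of 1.796 for the rod markers in Het mice and of 1.99 in KO mice.

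The lactate dehydrogenases went opposite ways. Ldha (ENSMUSG00000063229, chromosome 7) stood at 32268, 37171 and 35942 in the Het rod libraries and at 42571, 39816 and 37800 in the KO rod libraries. Ldha values in retina were 16724, 19507 and 12323 for Het and 18435, 15881 and 15929 for KO libraries. It was 2.62-fold higher in Het rods (1.39, SE 0.17, adjusted p = 0.00012) and 3.10-fold higher in KO rods (1.63, SE 0.11, adjusted p = 4.2e-06). Ldhb (ENSMUSG00000030246, chromosome 6) stood at 1041, 1175 and 1320 in the Het rod libraries and at 1441, 1380 and 1336 in the KO rod libraries. Ldhb values in retina were 2324, 2794 and 1814 for Het and 2502, 2191 and 2691 for KO libraries. Within each genotype the fractions did not overlap, and the log2 fold change was -0.70 in Het mice (SE 0.18, adjusted p = 0.0075) and -0.45 in KO mice (SE 0.12, adjusted p = 0.011). The KO value was short of the fold limit, and passed it with totals only (-0.99), with the GC correction (-0.52) and without KO retina replicate 2 (-0.55). The share of Ldhb in the summed per-kilobase level of both genes was 4.46% ± 0.353 in Het rods and 4.60% ± 0.0948 in KO rods, against 16.6% ± 0.399 in Het retina and 17.0% ± 1.76 in KO retina. The ratio of Ldha to Ldhb per kilobase was correspondingly 21.5 ± 1.71, 20.8 ± 0.450, 5.02 ± 0.145 and 4.92 ± 0.578 in these groups. These ratios do not depend on the scaling between libraries, and they are given without a test since the pairs were chosen with the values known.

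**Figure D3:**
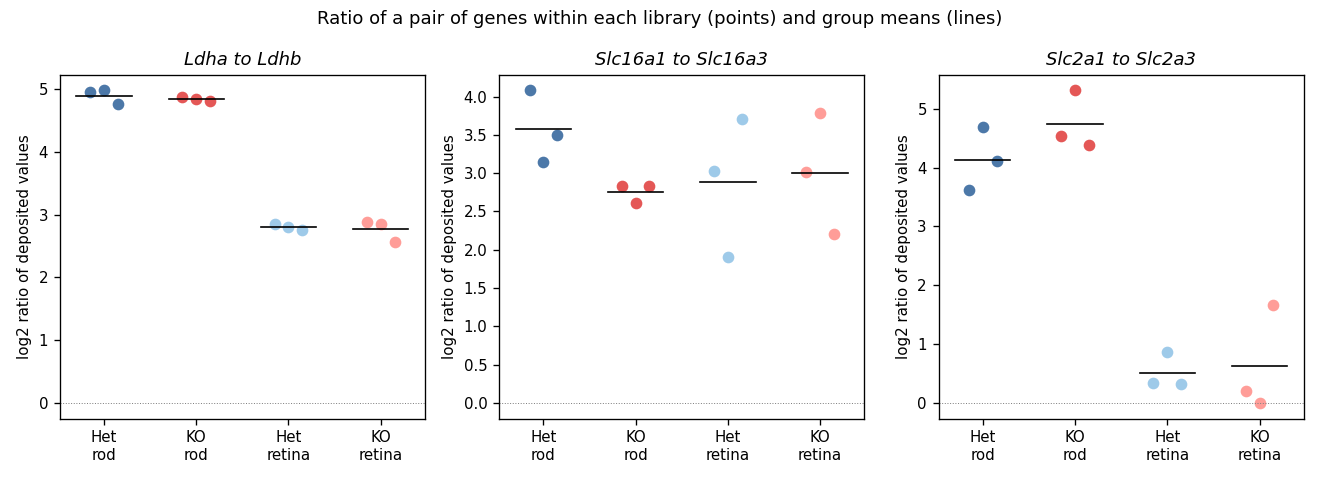
log2 ratio of the deposited values of a pair of genes within each library; points are libraries, lines group means of 3, and the dotted line marks equal values. For Ldha to Ldhb the rod groups have mean log2 ratios of 4.90 and 4.85 and the retina groups of 2.80 and 2.77; for Slc16a1 to Slc16a3 all 4 groups but Het and KO rods overlap each other.

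Of the 28 other genes listed as the wider family (further glucose, sodium-coupled and monocarboxylate transporters, the basigin relative Emb, Nxnl2, Ldhc, Ldhd and Txnip), 17 passed the filter on low values in Het rods and retina. Of these, 11 passed only through the retina libraries and had to be lower in rods, and 6 reached a value of 10 in all 3 Het rod libraries, of which 1 was called higher and 3 lower. The gene that rose was Nxnl2 (1.38, SE 0.12, adjusted p = 1.4e-05), the paralogue of Nxnl1. Slc2a13 fell by 4.39 on the log2 scale (SE 0.23) and Emb, which encodes embigin, the partner of MCT2, by 4.06 (SE 0.31), while Slc16a12 (-4.74, SE 0.67) and Slc16a9 (-4.52, SE 0.41) were among those that passed through retina alone. Slc16a6, the most abundant of this list, was at 0.40 (SE 0.20, adjusted p = 0.11) in Het mice and rose in KO mice (0.63, SE 0.11, adjusted p = 0.00096), where 18 family genes passed, 12 of them only through retina, and of the other 6 genes 2 were called higher and 3 lower. Among all genes tested, 21.6% were called higher and 36.8% lower in Het rods, with a median of -0.11. In KO rods these shares were 25.8% and 36.4%, with a median of -0.02. Of 17 glycolytic enzyme genes tested, 6 were called higher and 3 lower in Het rods, and 10 higher and 1 lower in KO rods. Their medians were 0.74 and 0.95. With totals only, these counts were 3 higher and 5 lower in Het rods, and without Het retina replicate 2 they were 10 higher and 2 lower. The hexokinases Hk2 (1.67, SE 0.17) and Hk1 (1.41, SE 0.19) and pyruvate kinase Pkm (1.14, SE 0.28) rose most in Het rods, while the muscle forms Pfkm (-1.92, SE 0.20) and Eno3 (-1.29, SE 0.31) and the neuronal enolase Eno2 (-0.62, SE 0.22) fell. When only totals were used for scaling, the median of all genes moved by -0.40 in Het and -0.53 in KO mice, and the share of calls that were higher went from 37.0% to 13.6% and from 41.5% to 12.7%. None of the 10 genes reversed direction in either rod against retina comparison under any alternative run. For Slc16a7 and Slc16a8 the filter had fixed the direction.

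The effect of Shp2 loss was read from KO against Het rods, which reuse the Het rod and KO rod libraries of the comparisons above. Ptpn11, the gene of Shp2, stood at 2511, 2439 and 2431 in the Het rod libraries and at 1735, 2139 and 1971 in the KO rod libraries. The groups did not overlap, but the log2 fold change of -0.26 (SE 0.09, adjusted p = 0.064) missed the threshold. The controls carry 1 floxed allele themselves, and a value per gene does not show whether the floxed part of the transcript was lost. How fully Shp2 was deleted can therefore not be read from these values. Against Shp2flox/flox mice, the paper reports lower Shp2 RNA and protein in retinas of its rod knockout. Of the 10 genes, 8 passed the filter and 2 were called, both higher in KO rods, against 11.2% of all 13055 genes called higher and 1.91% called lower. Slc16a7, at 2 to 5, and Slc16a8, at 4 to 11 in the rod libraries, were too low to test. The summed Müller glia markers were 1879 to 3253 in Het rods and 1776 to 2419 in KO rods, and 1 of the 10 was called higher. The summed RPE markers were 129 to 311 in Het rods and 50 to 498 in KO rods. The summed value of 9 amacrine cell markers was 603 to 669 in Het rods and 699 to 948 in KO rods, without overlap, and 1 of the 6 tested was called higher. Of 14 rod markers 4 were called higher and 0 lower, with a median log2 fold change of 0.20. The ranges of the cone, bipolar, endothelial and microglial marker sums overlapped between the genotypes. The part of these markers in the results below was not tested.

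Slc2a1 was 1.51-fold higher in KO rods (log2 fold change 0.60, SE 0.12, adjusted p = 0.0077) and Slc16a3 1.67-fold higher (0.74, SE 0.18, adjusted p = 0.024). For both genes all 3 KO rod values stood above all 3 Het rod values, and those of the KO libraries lay close together. Bsg (0.47, SE 0.12, adjusted p = 0.017), Ldhb (0.32, SE 0.10, adjusted p = 0.037) and Ldha (0.27, SE 0.08, adjusted p = 0.030) were also higher without overlap and below the fold limit. In all, 5 of 8 genes were higher without overlap, against 23.7% of all genes. Slc16a1 (-0.08, 95% interval -0.24 to 0.09), Slc2a3 (-0.02, -0.53 to 0.49) and Nxnl1 (0.00, -0.14 to 0.15) were not called. With Ldha and Ldhb both higher, the ratio of the pair within a library overlapped between KO and Het rods. The ratio of Slc16a1 to Slc16a3 per kilobase was 12.1 ± 4.06 in Het rods and 6.64 ± 0.561 in KO rods. At the protein level, the paper reports lower GLUT1 and, with marginal significance, lower LDHA in retinas of its rod knockout. Those were whole retinas of older mice set against Shp2flox/flox mice, so they are not like the rod RNA values here.

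The rise went with GC content. Across the genes tested, which are not independent replicates and of which 98.9% had a GC value, the log2 fold change between KO and Het rods had a Spearman correlation of 0.70 with the GC content of the transcript, and genes called higher had a median GC content of 57.5% against 49.5% for all genes and 43.2% for genes called lower. Each gene was also set against its mean over the 6 rod libraries. The GC value of a library is the median of the 10% of genes highest in GC minus that of the 10% lowest. It was -0.81, -0.23 and -0.42 log2 in Het rod libraries and 0.42, 0.76 and 0.28 in KO rod libraries. Being relative to a shared mean, the values of these groups tend to have opposite signs by construction. The GC content was 56.6% for Slc16a3, 57.6% for Bsg, 54.0% for Slc2a1, 53.0% for Ldhb, 51.7% for Nxnl1, 51.5% for Ldha, 49.4% for Slc2a3 and 42.9% for Slc16a1. With each library corrected for its own GC trend, limma called 0 of the 8 genes, and 3 had an unadjusted p below 0.05. Slc2a1 was at 0.31 (SE 0.08, adjusted p = 0.044), below the fold limit, Slc16a3 at 0.23 (SE 0.11, adjusted p = 0.24), Ldha at 0.17 (adjusted p = 0.12) and Bsg at -0.12 (adjusted p = 0.28). The direction of Bsg, Slc16a1 and Nxnl1 turned under this correction, and all genes then gave 152 calls higher and 192 lower. Without Het rod replicate 1, the library with the lowest GC value and the lowest Slc2a1 and Slc16a3, neither gene was called. The rise was then 0.41 for Slc2a1 (adjusted p = 0.013) and 0.49 for Slc16a3 (adjusted p = 0.015), both below the fold limit. Slc16a3 also lost its call without Het rod replicate 3 (adjusted p = 0.054), KO rod replicate 1 (0.072) or KO rod replicate 2 (0.097), and Bsg gained one without Het rod replicate 2 (0.53) or KO rod replicate 3 (0.59). The part of shared GC-linked differences between libraries and of the genotype in these rises cannot be told apart.

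**Figure D4:**
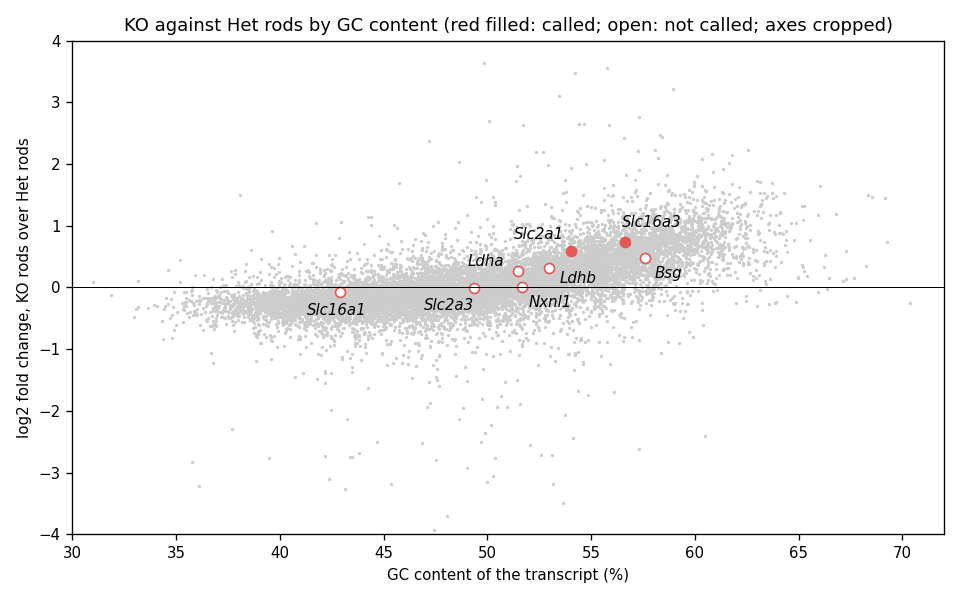
log2 fold change in KO over Het rods (vertical axis) against the GC content of the transcript (horizontal axis, %) for 12903 of 13055 genes tested (grey; the rest lack a GC value or lie off the axes) and the 8 members tested (red; filled when called). Slc16a1, at 42.9% GC, sits at -0.08, Nxnl1, at 51.7%, at 0.00, Slc2a1, at 54.0%, at 0.60, Slc16a3, at 56.6%, at 0.74 and Bsg, at 57.6%, at 0.47.

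Of the 17 glycolytic enzyme genes, 7 were called higher and 0 lower in KO rods, against 11.2% of all genes called higher and 1.91% called lower. The median of the 17 log2 fold changes was 0.44, against -0.01 for all genes. Pfkl (0.96, SE 0.14), Gapdh (0.91, SE 0.13) and Pkm (0.80, SE 0.09) rose most, and Eno1 (0.72) and Aldoa (0.63) rose too. With the GC trend removed, limma called 0 of 17 in either direction, 10 had an unadjusted p below 0.05 and the median was 0.14. Without Het rod replicate 1 or KO rod replicate 2, 4 were called. In the wider family 6 genes were tested and 1, Slc2a8, was called higher (0.92, SE 0.23, adjusted p = 0.016), a call that the GC correction also removed.

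In whole retina no gene was called between KO and Het by limma (0% of 16863; 140 had an unadjusted p below 0.05, or 0.83%, and 0 of the 10 genes did). The 10 log2 fold changes lay between -0.08 (Slc16a3) and 0.15 (Slc2a1 and Slc16a8). The 95% interval was -0.76 to 1.07 for Slc2a1, -1.08 to 0.92 for Slc16a3 and -0.36 to 0.23 for Nxnl1, so that a change of the size seen in rods could not be detected for Slc2a1 or Slc16a3. As in rods, the GC value of a retina library is relative to the mean of the 6 retina libraries. The Slc2a1 values moved with the GC value of their library: Het retina replicate 2 (2689) and KO retina replicate 3 (3527) had GC values of 0.86 and 0.90 log2, and the other 4 retina libraries, at 1311 to 1853, had values of -0.84 to 0.01. KO retina replicate 3 also held the highest RPE marker sum and a share of 3.61% of its total in the lens crystallins Cryaa, Cryba1 and Crygs. That share was 0.00056%, 1.12% and 1.35% in Het retina replicates 1, 2 and 3, and 0.35% and 0.89% in KO retina replicates 1 and 2. Without KO retina replicate 3 the log2 fold change was -0.27 for Slc2a1 and -0.87 for Slc16a8, neither called.

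The KO effect in rods minus that in retina, tested over all 12 libraries, was called for 0% of 17192 genes (601, or 3.5%, had an unadjusted p below 0.05, and 0 of the 10 genes). It was 0.72 for Slc16a3 (SE 0.50, adjusted p = 0.80) and 0.34 for Slc2a1 (SE 0.45, adjusted p = 0.84), with 95% intervals of -0.38 to 1.81 and -0.63 to 1.32. The rise of these genes in rods was therefore not shown to differ from their change in retina.

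Slc2a1 and Slc16a3 were called higher in KO rods, and Ldha, Ldhb and Bsg were higher below the fold limit; none was called with the GC correction. As background, Slc2a1, Slc16a3 and Ldha are textbook targets of hypoxia-inducible factors. The 250 bases before their RefSeq transcription starts (build GRCm38.p6) are given, 5′ to 3′, with those of Slc16a1, which was not called. A RefSeq promoter was at hand for 7 of the 10 genes, Bsg not among them. Capitals mark ACGTG, the core of the hypoxia response element, on either strand, widened to CACGTG where that palindrome of the E-box is present.
Slc2a1 (chr4:119108495-119108744, plus strand): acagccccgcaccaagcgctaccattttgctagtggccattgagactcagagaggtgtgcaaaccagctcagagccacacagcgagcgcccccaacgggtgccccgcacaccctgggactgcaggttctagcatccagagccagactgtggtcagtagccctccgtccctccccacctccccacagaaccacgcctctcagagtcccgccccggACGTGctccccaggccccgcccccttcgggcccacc
Slc16a3 (chr11:120948817-120949066, plus strand): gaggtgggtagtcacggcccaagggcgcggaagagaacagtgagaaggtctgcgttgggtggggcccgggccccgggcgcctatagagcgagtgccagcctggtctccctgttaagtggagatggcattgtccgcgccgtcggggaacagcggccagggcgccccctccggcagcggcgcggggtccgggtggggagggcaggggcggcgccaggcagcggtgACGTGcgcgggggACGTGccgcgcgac
Ldha (chr7:46845554-46845803, plus strand, the first of 2 starts listed): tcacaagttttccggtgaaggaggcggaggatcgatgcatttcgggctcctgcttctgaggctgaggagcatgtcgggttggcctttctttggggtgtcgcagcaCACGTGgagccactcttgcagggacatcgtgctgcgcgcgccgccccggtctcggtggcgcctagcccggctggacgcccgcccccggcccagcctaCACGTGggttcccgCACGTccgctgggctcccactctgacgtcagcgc
Slc16a1 (chr3:104638414-104638663, plus strand): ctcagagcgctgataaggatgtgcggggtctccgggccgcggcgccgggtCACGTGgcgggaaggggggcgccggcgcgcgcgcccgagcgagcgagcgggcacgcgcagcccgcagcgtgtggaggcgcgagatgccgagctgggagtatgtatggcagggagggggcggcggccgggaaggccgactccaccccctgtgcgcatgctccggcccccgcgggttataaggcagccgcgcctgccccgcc

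ACGTG occurred in 16.6% and CACGTG in 6.02% of 32851 promoter windows of the same length. Slc2a1 held 1 match, Slc16a3 held 2 and Ldha, at its first start, held 5 when the CACGTG palindromes, of which it had 2, were counted on both strands. A short stretch of bases after the first Ldha start was found in no GENCODE transcript of the gene, while that after the second Ldha start was. The stretch after the Nxnl1 start was not found either. Slc16a1, which was at -0.08 in KO rods, held 1 CACGTG, or 2 matches when counted on both strands in the same way. The letters were thus not limited to the genes that were higher. The second Ldha start and the promoters of Slc16a8, Nxnl1 and Ldhb had no match to ACGTG. The windows with a match had a GC content of 66.4% to 76.4% and those without of 47.6% to 58.8%. The shares over all windows were not matched for GC content, and its part in the matches was not tested. The homeodomain motif TAATCC, bound by the photoreceptor factor CRX, was present in 6.25% of windows and, of the 8 windows of these genes, in the second Ldha start alone. Only these exact letters were searched for, not close variants such as TAATCT, which the Nxnl1 window holds. A match is a run of letters, and binding was not measured.

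Over the 12 libraries the gene whose log2 level was most like that of each member, among 10413 genes of mean scaled value of at least 100, was Nrl, the rod transcription factor, for Nxnl1 (Pearson r 0.999). It was Fam3c for Slc16a1 (0.998), Gabrr3 for Slc16a7 (0.998) and Syp, which encodes the vesicle protein synaptophysin, for Ldha (0.997). For the others it was Frmd4a for Slc2a3 (0.996), Gm3839 for Slc16a3 (0.995), Cops7a for Bsg (0.992), the lysosomal protease gene Ctsd for Slc2a1 (0.986), Ptprn for Ldhb (0.979) and Tpcn1 for Slc16a8 (0.873). The 12 points share the split into rods and retina and the GC differences between libraries, and these correlations are a description.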

How the data were processed

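PolyA RNA of 6 rod TRAP and 6 whole-retina samples was converted with the SMART-Seq v4 kit and sequenced. Submitters' processing notes name CASAVA 1.8.2, HISAT2, DESeq2, edgeR and GRCm39 without a role; the counter and its strand setting are not given in the sources used here. The values deposited by the authors are a scaled signal: whole numbers per gene whose totals are nearly equal within a fraction, so that they are not raw reads. The factor of 11 libraries was estimated from the gaps among low values. Slc2a1, Slc2a3, Slc16a1, Slc16a7 and Slc16a8 overlap antisense, pseudogene, intronic or other gene models, and reads in shared bases cannot be told apart.

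Libraries were rescaled by trimmed means (TMM; 30% of ratios and 5% of levels trimmed), and genes with a value of about 10 in at least 3 libraries and a sum of 15 were kept. log2(value + 2) was fitted with limma 3.58.1 (trend and robust, R 4.3.3), with only the groups compared in each fit, Benjamini-Hochberg adjustment over all genes tested, and two-sided tests. With 3 libraries against 3 an exact permutation test of 1 gene cannot go below 0.1. The script was tested on simulated data. Per-kilobase levels, ratios and figures were made with Python 3.11.15, NumPy 2.4.6 and matplotlib 3.10.9. Chromosomes, lengths and GC content came from GENCODE vM21 (GRCm38) by Ensembl identifier, and promoters from RefSeq. For the GC correction, a lowess curve over GC content (span 0.3) was taken off every library.

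Members and gene lists were chosen with earlier results of these data known. All members were named in every comparison; from the family and glycolysis lists, at most 3 called genes per direction and the 3 most abundant; and per member the gene most correlated with it. Alternatives were RLE scaling, totals only, a pseudocount of 0.5, no filter, the replicate block, GC correction, rod-depleted genes removed and each library left out. Same-numbered libraries deviated together in Het rods and retina (correlations 0.47, 0.41 and 0.25 across genes), a pairing that rests on the data alone. Het rod and retina libraries of different numbers had correlations of -0.36 to 0.0058.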

Additional observations from a re-analysis of the deposited data

How the results depend on the processing

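In the rod against retina comparisons the direction of all 10 genes held under every alternative run. That of Slc16a7 and Slc16a8 was fixed by the filter, so for these genes it was not tested. In the main fits they made up 2 of the members called lower in Het mice and 1 in KO mice. The counts of members called ran from 3 to 6 higher and 3 to 4 lower in Het mice, and from 5 to 6 higher and 2 to 3 lower in KO mice, when each library was left out. RLE scaling and the GC correction, like the block, added Slc2a1 and Slc16a3 to the Het calls. With totals only, 1168 genes were called higher in Het and 1144 in KO mice, in place of 3474 and 4162, since the composition factor was dropped. Leaving out libraries gave 2994 to 4087 higher and 5482 to 5866 lower in Het mice, and 3663 to 4224 higher and 5583 to 5961 lower in KO mice.

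In KO against Het rods the number of members called higher was 0 with the GC trend removed, with or without the replicate block, and 0 to 3 when each library was left out: 0 without Het rod replicate 1, and 1 without Het rod replicate 3, KO rod replicate 1 or KO rod replicate 2. Over all genes, 152 were called higher with the GC trend removed and 192 with the block too, 584 were called lower with totals only, and leaving out libraries gave 810 to 1584 higher and 141 to 394 lower. The calls that were higher made up 67.3% with totals only and 44.2% with the GC trend removed, in place of 85.4%. The sign of genes near 0 changed: Nxnl1 was at -0.0022 with RLE, -0.079 with totals only, -0.11 with the GC trend removed and -0.026, -0.011, -0.0011 and -0.015 without single libraries (range -0.026 to 0.026); Slc2a3 was at 0.0075 without the filter and 0.059, 0.042 and 0.24 without single libraries (range -0.20 to 0.24); and Slc16a1, at -0.08, turned to 0.14 with the GC trend removed. Bsg, at 0.47 (adjusted p = 0.017) and so not near 0, turned to -0.12 under the same correction. Beyond the GC correction, the cause was not tested.

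In KO against Het retina, leaving out libraries gave 0 to 1 genes called in each direction. An alternative chosen after seeing the data, without the pair of retina libraries with the highest RPE markers, called 4 higher and 2 lower, with Slc2a1 at -0.40, Slc16a3 at -0.72 and Slc16a8 at -0.96. Over the libraries left out singly, Slc2a1 ran from -0.27 to 0.51, Slc16a3 from -0.45 to 0.34, with 0.24 without KO retina replicate 2, and Slc16a8 from -0.87 to 0.76. The difference of KO effects gave 0 to 1 genes called lower without single libraries.

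With the replicate number as a block, Slc2a1 and Slc16a3 were called in Het rods against Het retina, and 6 members were higher; the block changed no other call of a member. Correlations of same-numbered libraries were 0.33, -0.014 and 0.18 in KO rods and retina, 0.18, 0.034 and 0.026 in the rod groups and 0.40, -0.59 and -0.14 in the retina groups, where the libraries share only a number. In KO against Het rods the block gave 1589 genes higher and 296 lower. Depth limits Slc16a7 and Slc16a8 in rods, at 11 scaled reads or fewer.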
